A study of Mus musculus with 6 samples.

Results

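The 21 genes described here were near silent in control tumour cells and measurable in tumour cells with a guide RNA against Jag2. Levels are given as CPM, the count of a gene divided by the total of its library, times 1000000. A gene was taken when it had under 1 CPM in all 3 Scramble libraries and at least 2 CPM in all 3 JAG2KO libraries, and when it carried a named symbol. Genes whose symbols start with Krt, Hox, Mmp or Col were left out, which removed the keratin genes Krt5 and Krt14. The 21 genes stand among 55334 gene IDs in the table, and all were annotated as protein coding. The genes were chosen by their CPM in both groups, so those levels, and the fold changes made from them, are given as a description with no test. With the groups exchanged in the rule, 50 genes met it.

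The cells were Lewis lung carcinoma, a transplantable mouse lung tumour line, and they carried green fluorescent protein (GFP). The JAG2KO cells held a guide RNA against Jag2, and the Scramble cells held a scrambled guide. Both kinds were injected into the flanks of mice, and at the endpoint GFP-positive, CD45-negative and DAPI-negative cells were sorted for polyA RNA sequencing, with 3 libraries a group. The labels give no strain or age of the mice, do not say whether a line was 1 clone, and leave unsaid whether each library was made from a mouse of its own, so the p-values below measure only the spread between these libraries, which may be technical. JagKO2, JagKO3 and JagKO4 held 37036772, 37751864 and 42914376 counts, and Scramble replicates 1, 2 and 3 held 43907690, 43923565 and 39448304. At these depths 3 counts are worth 0.0683 to 0.081 CPM. Jag2 itself had 19, 30 and 48 counts in JagKO2, JagKO3 and JagKO4, against 67, 48 and 40 counts in Scramble replicates 1, 2 and 3, so the groups overlapped. Its log2 fold change was -0.56 (SE 0.39, adjusted p = 0.318 in edgeR), and this level does not check the edit, since an edited gene can still be transcribed. The labels call the cells lung. Of 14 listed airway and alveolar epithelium genes, 8 were under 1 CPM in every library. Among these, Sftpb, Sftpa1, Sftpd and the lung factor gene Nkx2-1 had 0 counts in all 6 libraries. The alveolar gene Ager had 2.35 to 4.06 CPM in JAG2KO and 1.5 to 2.14 CPM in Scramble. The epithelial keratin gene Krt18 had 278 to 332 CPM in JAG2KO and 260 to 272 CPM in Scramble. Krt8 had 3.15 to 4.75 CPM in JAG2KO and 118 to 128 CPM in Scramble.

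Jag2 encodes a ligand that binds Notch receptors on a neighbouring cell, after which the cleaved receptor enters the nucleus and acts with the DNA-binding protein RBPJ. Many genes of specialised tissues are held silent in other cells by Polycomb complexes, by methylation of CG dinucleotides in DNA or by methylation of histone H3. The 21 genes come from many tissues. They include adaptors best known in lymphocytes, transcription and chromatin factors of placenta and muscle, proteins of the contractile and cortical cytoskeleton, proteins of the neuronal secretory system, and membrane proteins.

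The DNA before a RefSeq start is shown for 4 of the genes, chosen for the extremes of CG content and of level per length. RefSeq windows (GRCm38.p6) were matched for 16 of the 21 genes, and the 250 bases upstream of the RefSeq start were read. RefSeq and GENCODE place starts differently, and 12 of the 19 windows reach into the gene as GENCODE draws it, while 7 lie before it. Of the 4 windows shown, that of Fam19a5 ends at the GENCODE start. The RefSeq start lies 100 bases inside the GENCODE gene for Tmem26, 1757 bases inside for Esx1 and 50.9 kb inside for Grap2. Which start the RNA used was not tested. Each sequence runs 5′ to 3′ on the strand of the gene, and the capitals mark CG dinucleotides, the bases that DNA methylation acts on. Tmem26 (chr10:68723496-68723745, plus strand) had the fewest Scramble counts, and Grap2 (chr15:80623233-80623482, plus strand) held the fewest CG. Esx1 (chrX:137120327-137120576, minus strand) had the highest JAG2KO level per length of exon, and the first window of Fam19a5 (chr15:87544049-87544298, plus strand) held the most CG.
Tmem26: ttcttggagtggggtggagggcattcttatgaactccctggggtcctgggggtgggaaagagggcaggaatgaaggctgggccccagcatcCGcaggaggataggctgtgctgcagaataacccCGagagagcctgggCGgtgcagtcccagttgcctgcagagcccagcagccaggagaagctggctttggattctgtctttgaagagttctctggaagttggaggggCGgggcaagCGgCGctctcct
Grap2: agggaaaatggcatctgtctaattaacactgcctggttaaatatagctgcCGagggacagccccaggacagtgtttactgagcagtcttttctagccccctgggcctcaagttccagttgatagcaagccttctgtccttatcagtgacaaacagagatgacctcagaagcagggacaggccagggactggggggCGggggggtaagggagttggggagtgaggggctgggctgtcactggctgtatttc
Esx1: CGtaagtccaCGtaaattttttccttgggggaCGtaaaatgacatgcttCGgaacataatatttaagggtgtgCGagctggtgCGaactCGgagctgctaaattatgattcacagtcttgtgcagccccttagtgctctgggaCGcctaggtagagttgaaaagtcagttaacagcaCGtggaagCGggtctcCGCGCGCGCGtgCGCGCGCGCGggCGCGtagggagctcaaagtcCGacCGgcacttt
Fam19a5: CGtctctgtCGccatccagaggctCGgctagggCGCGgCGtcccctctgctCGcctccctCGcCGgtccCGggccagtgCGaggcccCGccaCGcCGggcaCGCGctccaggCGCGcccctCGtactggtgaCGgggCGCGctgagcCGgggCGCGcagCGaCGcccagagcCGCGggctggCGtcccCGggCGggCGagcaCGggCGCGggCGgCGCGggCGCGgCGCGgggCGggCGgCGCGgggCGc

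These windows show no common CG class. Grap2 held 2 CG, Tmem26 held 6, Esx1 held 24 and Fam19a5 held 48. Over the 19 windows of the 16 matched genes the median was 9 CG (range 2 to 48), against a median of 6 over all 32851 RefSeq windows. At least 10 CG were found in 9 of the 19 windows, and in 37.8% of all windows. The letters TGGGAA, the core that RBPJ binds, were searched on both strands and stood in 4 of the 19 windows (those of Rftn1, Tmem26, Aldh1l1 and Sgcd), against 21.6% of all windows. TGANTCA, the AP-1 motif, stood in 3 windows (6.7% of all windows), and GGAATG, the TEAD motif, in 2 (12.6% of all windows). TATAAA was in 0 of the 19, against 12.4% of all windows. No matches of different motifs overlapped in these windows. A match is a description of letters and not evidence of binding.

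**Figure D1:**
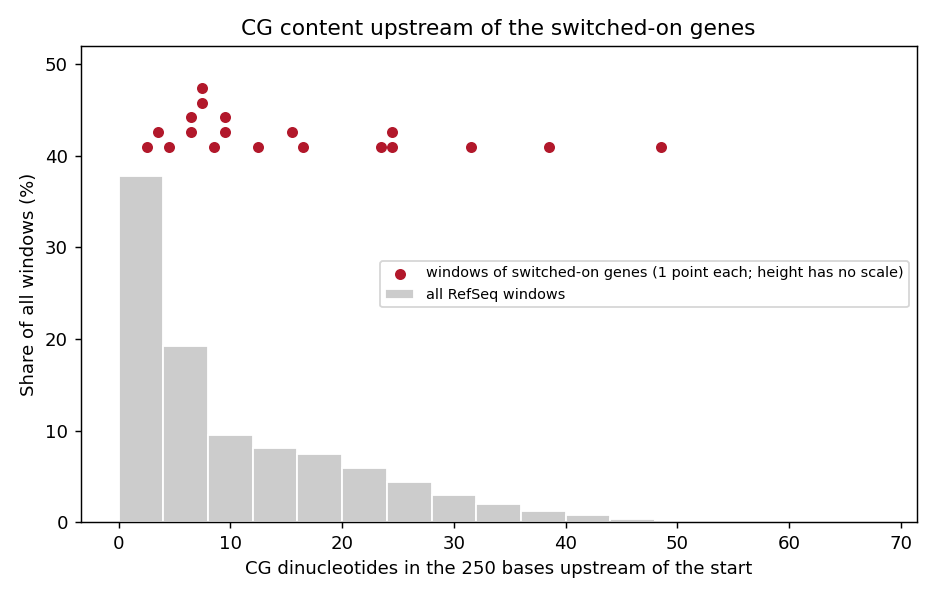
Number of CG dinucleotides in the 250 bases upstream of RefSeq starts (horizontal axis) against the share of all RefSeq windows in percent (grey bars), with 1 red point for each of the 19 windows of switched-on genes, whose height has no scale. The red points run from 2 to 48 CG, over most of the range of the grey bars.

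Tmem26 was the member closest to a true absence in Scramble. It encodes a transmembrane protein used as a marker of beige fat cells (ENSMUSG00000060044.8, chromosome 10, 68723646 to 68782650, plus strand in GRCm38). It had 362, 321 and 360 counts in JagKO2, JagKO3 and JagKO4, against 0, 0 and 2 counts in Scramble replicates 1, 2 and 3. It was the only member with a Scramble library at 0. The ratio of summed counts, corrected for library totals, was 564-fold (95% exact binomial interval 156 to 4663, which covers counting error only). Without Scramble replicate 3 the JAG2KO level was at least 259-fold higher, with the remaining Scramble libraries, both at 0, set together to 3 counts. Of 6 tested fat cell markers, 0 passed the edgeR threshold. Adipoq and Fabp4 had log2 fold changes of 0.00 and 0.16, Cidec one of 1.47 and Pparg one of -1.56. The summed list of 7 fat cell markers was 7.05 to 8.85 CPM in JAG2KO and 5.75 to 11.5 CPM in Scramble, and Fabp4 held most of it.

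Among the 3 genes best known in lymphocytes, Grap2 had the widest gap between the groups. It encodes GADS, an adaptor that joins LAT to SLP-76 below the T cell receptor (ENSMUSG00000042351.9, chromosome 15, 80572594 to 80652854, plus strand). Grap2 measured 17.9, 15.1 and 14.1 CPM in JagKO2, JagKO3 and JagKO4, against 0.364, 0.455 and 0.177 CPM in Scramble replicates 1, 2 and 3, so that the lowest JAG2KO library stood 30.9-fold above the highest Scramble one. Rftn1, which encodes the lipid raft protein raftlin of B cells (chromosome 17, 49992257 to 50190674, minus strand), measured 12.4, 9.14 and 12.4 CPM in JagKO2, JagKO3 and JagKO4. Scramble replicates 1, 2 and 3 had 0.911, 0.774 and 0.989 CPM of Rftn1, close to the limit of the rule. Pou2f2, the gene of the octamer-binding factor Oct-2 of B cells (chromosome 7, 25087344 to 25179726, minus strand), had 2.03, 3.74 and 2.61 CPM in JagKO2, JagKO3 and JagKO4 and 0.661, 0.729 and 0.583 CPM in Scramble replicates 1, 2 and 3. T cell markers did not share these levels. Cd3e had 4 to 9 counts in JAG2KO and 2 to 6 in Scramble, and 11 of the 13 T and NK cell markers were under 1 CPM in every library. The summed T and NK cell list was 1.38 to 4.74 CPM in JAG2KO and 2.19 to 3.01 CPM in Scramble. The B cell list did move, at 19.5 to 26.7 CPM in JAG2KO against 6.84 to 9.13 CPM in Scramble. The B cell marker that passed the test was the immunoglobulin gene Ighm, at 12.6 to 24.5 CPM in JAG2KO and 4.28 to 6.26 CPM in Scramble. The part of B lineage cells in the levels of Rftn1 and Pou2f2 was not tested.

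**Figure D2:**
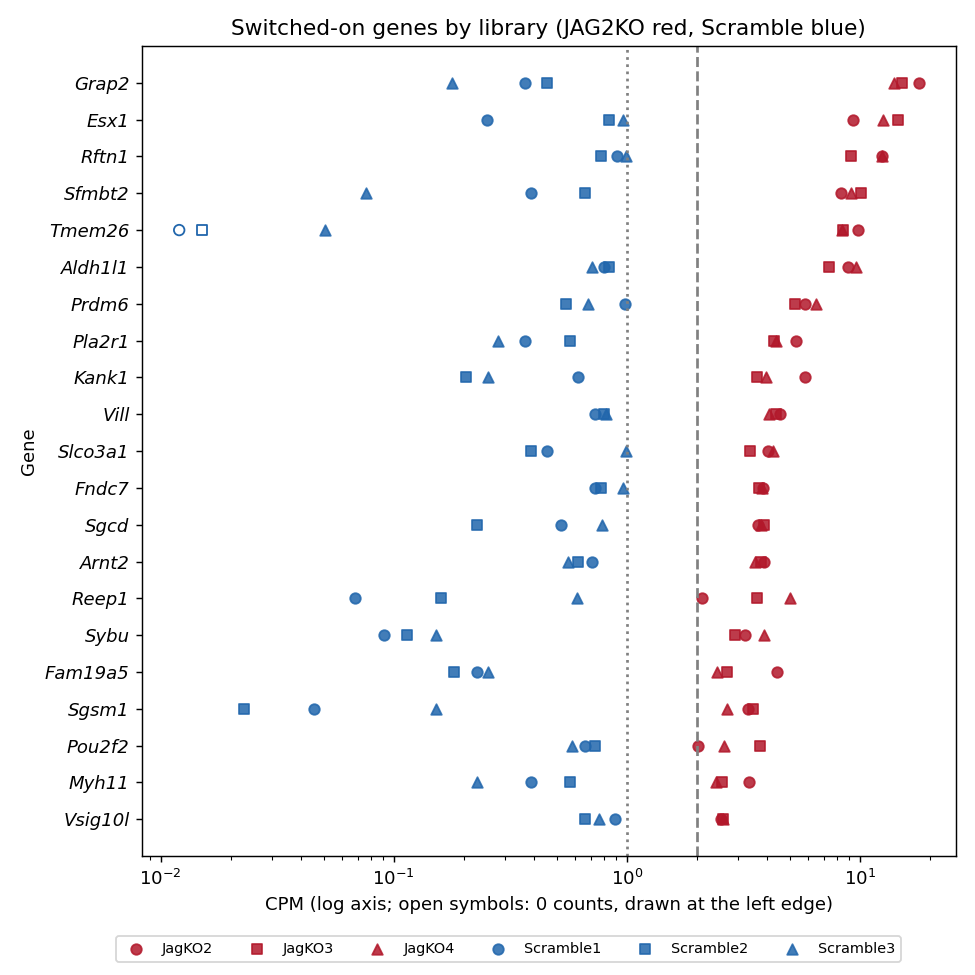
CPM of each of the 21 switched-on genes (rows) in each library on a log axis, JAG2KO in red and Scramble in blue, with open symbols for libraries at 0 counts; the dashed and dotted lines are the limits of the rule at 2 and 1 CPM. Tmem26, Sgsm1, Sybu and Grap2 have the widest gaps between the groups, while Vsig10l and Pou2f2 lie near both lines.

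The transcription and chromatin factors of the set were Esx1, Sfmbt2, Prdm6 and Arnt2 beside Pou2f2. Esx1, an X-linked homeobox gene of placenta and testis (ENSMUSG00000023443.13, chromosome X, 137115397 to 137122083, minus strand), measured 9.37, 14.6 and 12.6 CPM in JagKO2, JagKO3 and JagKO4, against 0.251, 0.842 and 0.963 CPM in Scramble replicates 1, 2 and 3. Per kilobase of exon its mean was 6.14 CPM in JAG2KO and 0.345 CPM in Scramble, the highest JAG2KO value per kilobase of the 21 genes, with Grap2 and Rftn1 next at 2.51 CPM per kilobase each. Sfmbt2 encodes a Polycomb group protein that is expressed from the paternal allele in mouse extraembryonic tissue (ENSMUSG00000061186.15, chromosome 2, 10370510 to 10595253, plus strand). It had 8.26, 10.1 and 9.16 CPM in JagKO2, JagKO3 and JagKO4, and 0.387, 0.66 and 0.0761 CPM in Scramble replicates 1, 2 and 3. The ratio of mean Sfmbt2 CPM was 24.5, and 39.6 without Scramble replicate 2, the library in which it was highest among controls. Prdm6, a PR domain factor of vascular smooth muscle on chromosome 18 (53463583 to 53575907), measured 5.83, 5.27 and 6.48 CPM in JagKO2, JagKO3 and JagKO4 and 0.979, 0.546 and 0.684 CPM in Scramble replicates 1, 2 and 3. Arnt2, a bHLH-PAS partner protein gene of brain (chromosome 7, 84246278 to 84410176), measured 3.86, 3.76 and 3.54 CPM in JagKO2, JagKO3 and JagKO4, against 0.706, 0.615 and 0.558 CPM in Scramble replicates 1, 2 and 3, an even level in both groups. An antisense gene model shares 214 exon bases with Arnt2, and whether the counting used strand is unknown here, so its level is uncertain to that extent.

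Of the cytoskeletal genes, 4 met the rule. Kank1, whose protein links focal adhesions to the cell cortex (chromosome 19, 25236975 to 25434496, plus strand), measured 5.81, 3.63 and 3.94 CPM in JagKO2, JagKO3 and JagKO4, and 0.615, 0.205 and 0.254 CPM in Scramble replicates 1, 2 and 3. Its ratio of mean CPM was 12.5, or 19.5 without Scramble replicate 1. Vill encodes an actin-binding villin-like protein and was even in both groups. It had 4.54, 4.37 and 4.06 CPM in JagKO2, JagKO3 and JagKO4, against 0.729, 0.797 and 0.811 CPM in Scramble replicates 1, 2 and 3. Myh11, the smooth muscle myosin heavy chain gene (chromosome 16, 14194535 to 14291372, minus strand), had 3.35, 2.57 and 2.42 CPM in JagKO2, JagKO3 and JagKO4, against 0.387, 0.569 and 0.228 CPM in Scramble replicates 1, 2 and 3. Sgcd, a sarcoglycan of the dystrophin complex in muscle membranes and the longest gene of the set (chromosome 11, 46896253 to 47988969), had 3.67, 3.87 and 3.75 CPM in JagKO2, JagKO3 and JagKO4, against 0.524, 0.228 and 0.786 CPM in Scramble replicates 1, 2 and 3. Sgcd and Vill were even over the JAG2KO libraries, while Kank1 and Myh11 were highest in JagKO2.

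Markers of vessel wall and muscle moved in part with this group. Of the 8 other smooth muscle markers that could be tested, edgeR called 2 higher and 1 lower and left 5 uncalled, against 11.8% higher and 12.5% lower over all 16049 tested genes. Mylk, the myosin light chain kinase gene, had 16.5 to 21.6 CPM in JAG2KO and 9.47 to 10.5 CPM in Scramble (log2 fold change 0.93, adjusted p = 0.000214 in edgeR). Acta2, smooth muscle actin, averaged 41.9 ± 2.23 CPM in JAG2KO and 28.6 ± 3.45 CPM in Scramble (SD, n = 3 each; log2 fold change 0.54, adjusted p = 0.00143 in edgeR), while Synpo2 fell by 1.12 on the log2 scale (adjusted p = 0.00242 in edgeR). The defining markers Tagln and Cnn1 stayed at or under 0.355 CPM in every library, and Myocd had 0 counts in all 6. Of 14 pericyte and fibroblast markers, 7 were higher, 1 lower and 6 not called, with summed levels of 1026 to 1539 CPM in JAG2KO and 879 to 1038 CPM in Scramble, so the sums overlapped. The fibroblast genes Dcn, Lum, Dpt and Pdgfra made up most of each sum, and none of them was called. The mural cell genes of that list differed in part, and the pericyte gene Cspg4 was not called (log2 fold change 0.33, adjusted p = 0.627 in edgeR). Rgs5, a pericyte regulator of G protein signalling, had 38.6, 21.1 and 27.4 CPM in JagKO2, JagKO3 and JagKO4, against 8.68, 5.99 and 7.93 CPM in Scramble replicates 1, 2 and 3 (log2 fold change 1.94, SE 0.20, adjusted p = 3.53e-05 in edgeR). Notch3, a receptor gene of mural cells, had 4.37 to 8.69 CPM in JAG2KO and 1.3 to 2.18 CPM in Scramble (log2 fold change 1.87, adjusted p = 0.000503 in edgeR). Pdgfrb, Mcam, Abcc9 and Kcnj8 were also called higher, with log2 fold changes of 0.82, 0.93, 1.33 and 1.90, and in each of these genes every JAG2KO library lay above every Scramble library. Fap, a fibroblast protease gene, fell by 2.38 on the log2 scale (adjusted p = 5.13e-06 in edgeR). Skeletal muscle markers summed to 11.4 to 135 CPM in JAG2KO, lowest in JagKO3, and to 8.42 to 45.3 CPM in Scramble. Endothelial markers, of which 7 of 13 were higher, summed to 68.3 to 94.7 CPM in JAG2KO and 47.2 to 52 CPM in Scramble. Macrophage markers summed to 109 to 130.1 CPM in JAG2KO and 69.3 to 82.9 CPM in Scramble, with 6 of 15 higher and 1 lower, although the sort took CD45-negative cells. Red cell markers summed to 12.4 to 31.2 CPM in JAG2KO and 50.8 to 59.9 CPM in Scramble. These libraries hold RNA of sorted cells in bulk, in which more cells of a type and more RNA per cell cannot be told apart, and the part of such cells in the levels of Myh11, Sgcd and Prdm6 was not tested.

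**Figure D3:**
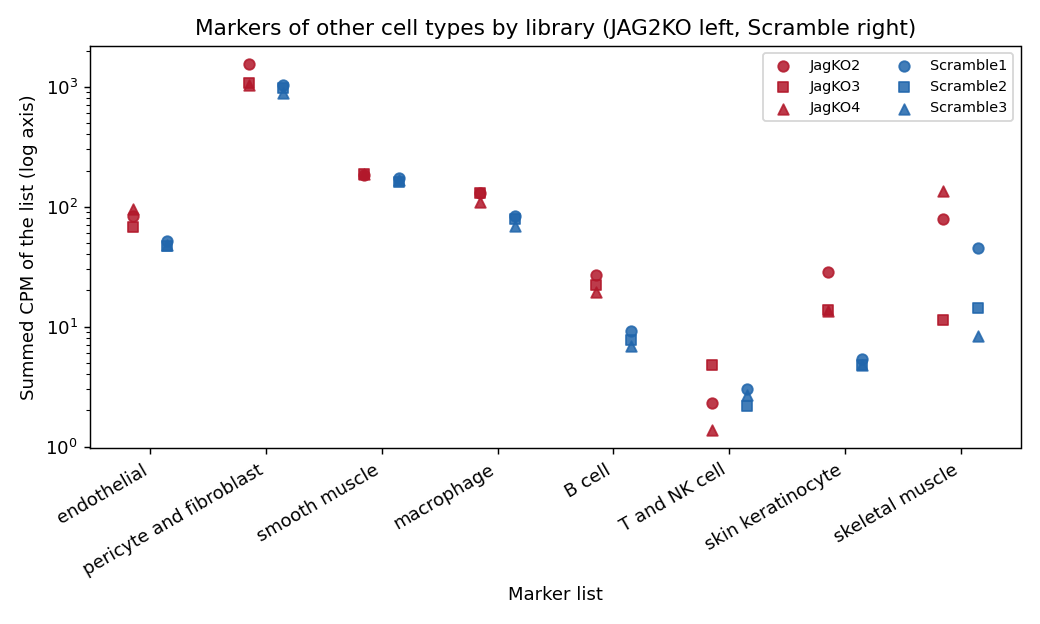
Summed CPM of marker lists for cell types other than the tumour line (log axis), leaving out any switched-on gene, with the 3 JAG2KO libraries in red on the left of each pair and the 3 Scramble libraries in blue on the right. Endothelial, macrophage and B cell sums are higher in all 3 JAG2KO libraries, as is the keratinocyte sum, which includes Krt5 and Krt14, while the T and NK cell and skeletal muscle sums overlap between the groups.

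Genes of the secretory and endoplasmic reticulum system of neurons made up another 4 members. Sybu encodes syntabulin, which couples cargo vesicles to kinesin (chromosome 15, 44671856 to 44788063, minus strand). It measured 3.21, 2.91 and 3.89 CPM in JagKO2, JagKO3 and JagKO4, against 0.0911, 0.114 and 0.152 CPM in Scramble replicates 1, 2 and 3, and the lowest JAG2KO library was 19.2-fold above the highest Scramble one. The pseudogene A930017M01Rik lies inside Sybu on the opposite strand and shares 207 exon bases with it. It had 20, 11 and 15 counts in JagKO2, JagKO3 and JagKO4 and 0 in every Scramble library, and without a known strand setting its reads and those of Sybu cannot be told apart. Sgsm1, which encodes a RUN and TBC domain regulator of small G proteins (chromosome 5, 113243220 to 113310786, minus strand), had 123, 131 and 115 counts in JagKO2, JagKO3 and JagKO4, against 2, 1 and 6 counts in Scramble replicates 1, 2 and 3. Its ratio of mean CPM was 43.0, and 92.4 without Scramble replicate 3. Reep1 encodes a protein that shapes tubules of the endoplasmic reticulum (chromosome 6, 71707561 to 71810710, plus strand). It measured 2.11, 3.6 and 5.01 CPM in JagKO2, JagKO3 and JagKO4 and 0.0683, 0.159 and 0.608 CPM in Scramble replicates 1, 2 and 3. The ratio of mean Reep1 CPM was 12.8, and 31.4 without Scramble replicate 3. Fam19a5, now named Tafa5, encodes a secreted protein of brain and had 4.43, 2.7 and 2.45 CPM in JagKO2, JagKO3 and JagKO4 against 0.228, 0.182 and 0.254 CPM in Scramble replicates 1, 2 and 3. Schwann cell and nerve markers summed to 49.5 to 58.8 CPM in JAG2KO and 50.2 to 55.3 CPM in Scramble, which overlap, and Mbp held most of that sum. The neuronal tubulin gene Tubb3 of that list was lower, at 10.9 ± 2.01 CPM in JAG2KO and 16.6 ± 2.27 CPM in Scramble (SD, n = 3 each; log2 fold change -0.61, adjusted p = 0.0122 in edgeR), and lost its call without Scramble replicate 2 (adjusted p = 0.0554 in edgeR).

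The metabolic and membrane genes were the least uniform in function. Aldh1l1, a folate enzyme gene known as an astrocyte marker (chromosome 6, 90486427 to 90600203, plus strand), measured 8.88, 7.39 and 9.58 CPM in JagKO2, JagKO3 and JagKO4, against 0.797, 0.842 and 0.71 CPM in Scramble replicates 1, 2 and 3. The astrocyte genes Gfap and Aqp4 had at most 15 counts in any library. Slc1a3 of that list had 28, 12 and 6 counts in JagKO2, JagKO3 and JagKO4, against 1, 4 and 4 counts in Scramble replicates 1, 2 and 3. The astrocyte list without Aldh1l1 summed to 546 to 708 CPM in JAG2KO and 766 to 836 CPM in Scramble. Gja1 held most of that sum, at 508 to 632 CPM in JAG2KO and 700 to 786 CPM in Scramble. Gene models on either strand share exon bases with Aldh1l1. Pla2r1, the receptor gene for secretory phospholipase A2 (chromosome 2, 60417543 to 60553308, minus strand), had 5.32, 4.29 and 4.36 CPM in JagKO2, JagKO3 and JagKO4 and 0.364, 0.569 and 0.279 CPM in Scramble replicates 1, 2 and 3, with 299 exon bases shared with an opposite-strand model. Slco3a1, an organic anion transporter gene, measured 4.02, 3.39 and 4.22 CPM in JagKO2, JagKO3 and JagKO4, against 0.456, 0.387 and 0.989 CPM in Scramble replicates 1, 2 and 3. Fndc7, a fibronectin type III domain gene, measured 3.83, 3.68 and 3.8 CPM in JagKO2, JagKO3 and JagKO4, against 0.729, 0.774 and 0.963 CPM in Scramble replicates 1, 2 and 3. Its level was even over JAG2KO. Vsig10l, an immunoglobulin domain gene, ranged over 2.54 to 2.6 CPM in JAG2KO and 0.66 to 0.888 CPM in Scramble, and its ratio of mean CPM, 3.34, was the smallest of the 21. Other gene models on the same strand share exon bases with Vsig10l, Pou2f2 and Aldh1l1, so their counts are uncertain to that extent.

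Over the whole set the median ratio of mean CPM was 11.5. In 13 of the 21 genes the lowest JAG2KO library was at least 5-fold above the highest Scramble library. The 21 genes summed to 124, 119 and 122 CPM in JagKO2, JagKO3 and JagKO4, and to 10.2, 10.1 and 11.03 CPM in Scramble replicates 1, 2 and 3. The rule set its limits on every library, so the gap between these sums is a description. All 21 passed the filter on low counts and all were called higher by edgeR, where 11.8% of the 16049 tested genes were, and JAG2KO lay wholly above Scramble for 19.6% of tested genes. The rule fixes this outcome, and nothing is read from it. Of the 13755 named genes under 1 CPM in every Scramble library, only 1488 could be tested. Of these, 171 were called higher and 35 lower, where 11.8% of all tested genes were higher and 12.5% lower. They were chosen by a low Scramble level, which favours calls in the higher direction, so nothing is read from these counts either.

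Near the limits the choice turned on small differences. The members with the lowest smallest JAG2KO value were Pou2f2 at 2.03 CPM, Reep1 at 2.11, Myh11 at 2.42, Fam19a5 at 2.45 and Vsig10l at 2.54 CPM. Kbtbd11 fell just outside with 1.93 CPM in JagKO3, as did Draxin with 1.92, Slit1 with 1.86, Mapk8ip2 with 1.84 CPM in JagKO2 and Gpc4 with 1.75 CPM in JagKO3. On the Scramble side, Slco3a1 and Rftn1 were inside at a highest value of 0.989 CPM, with Prdm6 at 0.979 and Esx1 and Fndc7 at 0.963 CPM. Among genes whose lowest JAG2KO library was still over 2-fold above the highest Scramble one, Entpd2 and R74862 missed with 1.12 CPM in Scramble replicate 1, followed by Gfra2 with 1.16 and Greb1 with 1.28 CPM in Scramble replicate 2 and Abcg1 with 1.34 CPM in Scramble replicate 1. Slit1 and Draxin, near misses here, are secreted axon guidance genes.

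The members differed from each other in how evenly the JAG2KO libraries expressed them. The highest JAG2KO library was 1.02-fold above the lowest for Vsig10l, 1.04-fold for Fndc7 and 1.05-fold for Sgcd, but 2.38-fold for Reep1, 1.84-fold for Pou2f2 and 1.81-fold for Fam19a5. The median of this ratio was 1.27 over the 21 genes, against 1.29 over 2959 other tested genes with at least 2 CPM in every JAG2KO library and a mean up to that of Grap2. Nor did 1 library lead: JagKO2 was highest for 9 members, JagKO3 for 6 and JagKO4 for 6. JagKO2 was the lowest library for Reep1, Pou2f2 and Esx1 and the highest for Fam19a5, Kank1 and Myh11.

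**Figure D4:**
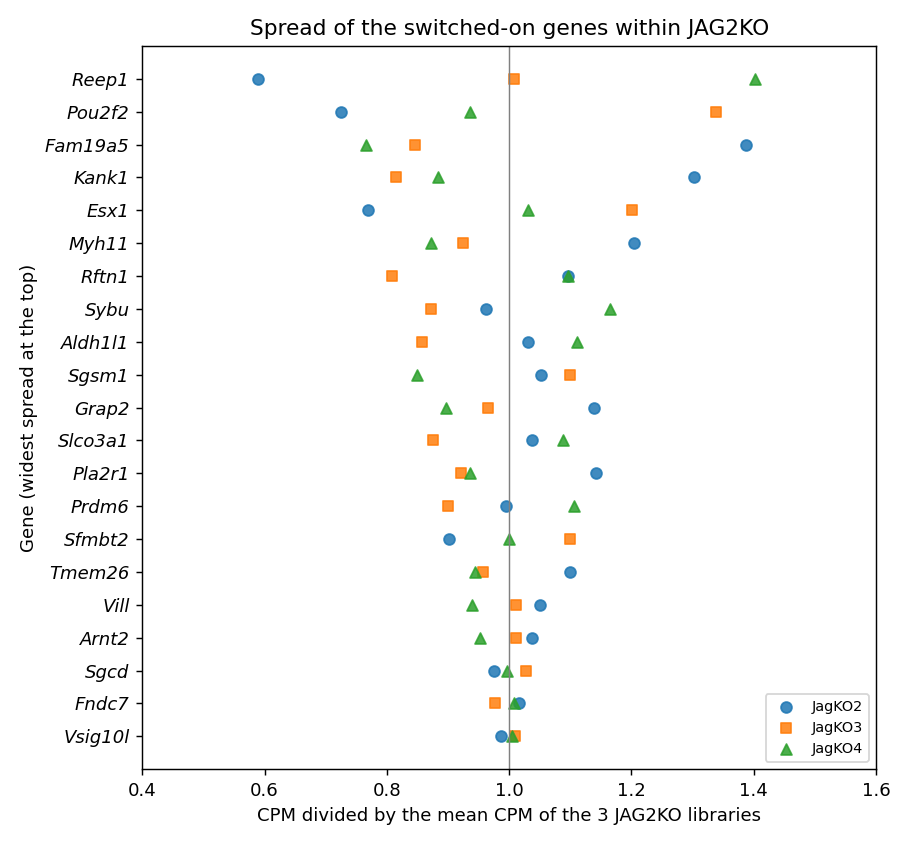
CPM of each switched-on gene in each JAG2KO library divided by the mean of the 3 JAG2KO libraries (horizontal axis), with genes ordered by their spread. Reep1, Pou2f2 and Fam19a5 at the top have the widest spread, with a highest library 2.38, 1.84 and 1.81 times the lowest, and different libraries are high for different genes.

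In position the members were scattered. They lay on 14 chromosomes, with 4 on chromosome 7 (Pou2f2, Arnt2, Slco3a1 and Vsig10l) and 3 on chromosome 15 (Grap2, Sybu and Fam19a5), and no member was within 500 kb of another. On chromosome 15, 18.4% of 631 tested genes were higher and 8.56% lower in JAG2KO, and on chromosome 7 11.9% of 1195 were higher and 6.19% lower. Members also lay on chromosomes where lower genes outnumbered higher ones: chromosome X held Esx1 with 22 higher and 96 lower of 481 tested genes, and chromosome 19 held Kank1 with 6.58% higher and 23.3% lower of 562. The genes were long, with a median span of 112 kb from start to end of the annotation (6.69 to 1093 kb), against 17.7 kb over all tested genes and 15.03 kb over the tested genes that were under 1 CPM in every Scramble library. Their median exon length was 6243 bases, against 3798 bases over all tested genes. A limit in CPM takes no account of length.

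The genes around the members, which the rule did not use, were mostly not called. Within 500 kb of a member lay 173 other tested genes. Of these, edgeR called 29 higher and 17 lower and left 127 uncalled (16.8% and 9.83%, against 11.8% and 12.5% of all tested genes), with a median log2 fold change of 0.05, against 0.00 over all tested genes. The 29 include the pseudogene A930017M01Rik, which overlaps Sybu. Without a known strand setting its reads cannot be told apart from those of Sybu, so its call may not be separate from that member. Without JagKO4, or without Scramble replicate 1, 19 of the 173 genes were higher and 9 lower. Taking only the nearest tested gene on each side, a choice made after the data were seen, 13 of 35 were higher, 2 lower and 20 not called (37.1% and 5.71%), with a median of 0.17. That count fell to 7 without JagKO4 or without Scramble replicate 1, and to 8 without Scramble replicate 3. Fewer libraries enter the fits that leave 1 out. The shares of all tested genes called in those fits are not given here, so these lower counts have no background beside them.

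The neighbours of single members behaved in different ways. Beside Grap2, Tnrc6b, an RNA silencing factor gene 58.5 kb downstream, averaged 76.6 ± 7.31 CPM in JAG2KO and 41.7 ± 0.333 CPM in Scramble (SD, n = 3 each; log2 fold change 0.87, SE 0.08, adjusted p = 1.3e-05 in edgeR). Mgat3, a glycosyltransferase gene 357 kb upstream of Grap2, averaged 18.9 ± 0.337 CPM in JAG2KO and 6.72 ± 0.54 CPM in Scramble (log2 fold change 1.48, adjusted p = 3.81e-06 in edgeR). Upstream of Arnt2, the gene model Gm2115 had a log2 fold change of 1.21 (adjusted p = 2.52e-07 in edgeR), with 101.8 ± 5.73 CPM in JAG2KO and 43.9 ± 1.71 CPM in Scramble. Kank1 stood between opposite changes. Dock8, a guanine nucleotide exchange factor gene 34.5 kb upstream, fell to 1.8 ± 0.293 CPM in JAG2KO, against 10.5 ± 1.19 CPM in Scramble (log2 fold change -2.51, SE 0.19, adjusted p = 2.26e-06 in edgeR). Dmrt2, a DM domain factor gene 238 kb downstream of Kank1, had 67, 17 and 28 counts in JagKO2, JagKO3 and JagKO4 and 0, 0 and 4 counts in Scramble replicates 1, 2 and 3. Its log2 fold change was 3.64 (adjusted p = 0.004 in edgeR), and 2.89 without JagKO2 or 4.38 without Scramble replicate 3.

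**Figure D5:**
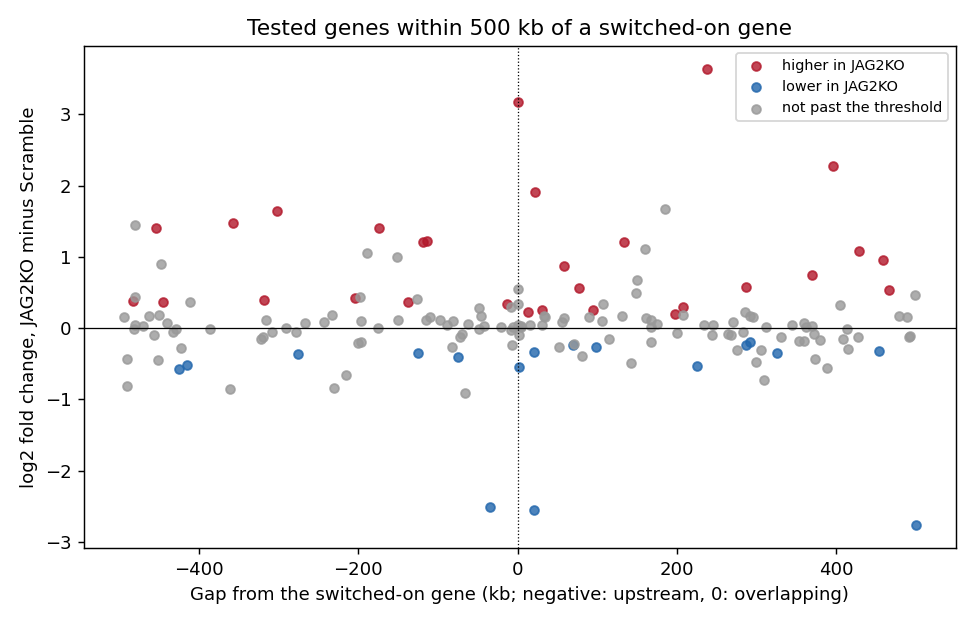
Log2 fold change, JAG2KO minus Scramble (vertical axis), of the tested genes within 500 kb of a switched-on gene against their gap from it in kb, negative upstream and 0 for overlapping genes; red is called higher, blue called lower and grey not past the edgeR threshold. Most points lie near 0 at every distance, and the lowest ones include Dock8 at -2.51.

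Around Reep1 more of the called neighbours were lower than higher. Of its 17 tested neighbours 2 were higher and 7 lower. On chromosome 6, which holds Reep1, 12.1% of 813 tested genes were higher and 23.1% lower, against 11.8% and 12.5% of all tested genes. The lower neighbours included the histone demethylase gene Kdm3a (log2 fold change -0.40, SE 0.06, adjusted p = 0.00075 in edgeR) and the mitochondrial membrane gene Immt (log2 fold change -0.34, SE 0.06, adjusted p = 0.00145 in edgeR). Vill with 15 tested neighbours, Vsig10l with 7 and Aldh1l1 with 6 had 0 called neighbours in either direction. Tmem26 had 3 tested neighbours, of which Rhobtb1 and Arid5b were higher by 0.74 and 0.36 on the log2 scale (adjusted p = 0.000818 and 0.0111 in edgeR). They lie 369 kb and 445 kb away.

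Genes of the same families as the members changed in both directions. Families were formed by the symbol before its last number, leaving out families of more than 30 tested genes, and held 38 tested genes outside the set. Here edgeR called 10 higher and 6 lower and left 22 uncalled, 26.3% and 15.8% against 11.8% and 12.5% of all tested genes, with a median log2 fold change of 0.13. Rftn2, of the same family as Rftn1, averaged 5.15 ± 0.17 CPM in JAG2KO and 1.88 ± 0.43 CPM in Scramble, with a log2 fold change of 1.43 (SE 0.23, adjusted p = 0.000774 in edgeR). Sgsm2 had a log2 fold change of 0.60 (adjusted p = 0.000379 in edgeR) and Sgsm3 one of -0.35 (adjusted p = 0.0167 in edgeR, lost in 4 of 6 fits that left out 1 library). Fndc1 and the nonmuscle myosin gene Myh10 rose, by 1.83 and 0.53 (log2; adjusted p = 0.000154 and 0.000167 in edgeR). Fam19a1 was at 0 counts in all 3 JAG2KO libraries and at 50, 34 and 48 counts in Scramble replicates 1, 2 and 3, the opposite of Fam19a5. Fndc3a fell by 0.33 and Prdm9, a meiotic factor gene, by 1.37 on the log2 scale (adjusted p = 0.00432 and 0.00724 in edgeR). Pou2f1, which encodes Oct-1, had 34.2 ± 3.35 CPM in JAG2KO and 22.2 ± 1.9 CPM in Scramble (log2 fold change 0.62, adjusted p = 0.000801 in edgeR).

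The other listed placental genes did not follow Esx1 and Sfmbt2. Of 30 listed genes, 14 outside the set could be tested. Of these, edgeR called 1 higher and 5 lower and left 8 uncalled, with a median log2 fold change of -0.06, and 8 of the 30 had 0 counts in every library. Dlx3, a homeobox gene of placenta and skin, was the higher one, at 1.43, 3.13 and 7.71 CPM in JagKO2, JagKO3 and JagKO4 and 0.137, 0.114 and 0.152 CPM in Scramble replicates 1, 2 and 3. It missed the rule through JagKO2, and its log2 fold change was 4.50 (SE 0.62, adjusted p = 0.000151 in edgeR), or 3.67 without JagKO4. Peg10, an imprinted gene needed for placenta, averaged 45.6 ± 6.27 CPM in JAG2KO and 125.6 ± 3.5 CPM in Scramble (log2 fold change -1.47, adjusted p = 5.16e-07 in edgeR). Prl2c2, a prolactin family gene with close copies that can share reads, fell by 2.36 on the log2 scale (adjusted p = 4.57e-06 in edgeR). The listed placental genes outside the set summed to 141 to 172 CPM in JAG2KO, against 292 to 296 CPM in Scramble.

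Most tested genes of the silencing machinery were not called, and the shares called are to be read against 11.8% higher and 12.5% lower over all tested genes. Among 33 tested Polycomb genes other than Sfmbt2, edgeR called 5 higher and 7 lower and left 21 uncalled, with a median log2 fold change of 0.06. Ezh2, the H3K27 methyltransferase gene, averaged 56.3 ± 3.93 CPM in JAG2KO and 78.4 ± 9.09 CPM in Scramble (log2 fold change -0.48, SE 0.09, adjusted p = 0.00186 in edgeR). Cbx7, which encodes a reader of that mark, averaged 57.4 ± 5.55 CPM in JAG2KO and 32.6 ± 1.56 CPM in Scramble (log2 fold change 0.81, SE 0.09, adjusted p = 3.85e-05 in edgeR), and the H3K27 demethylase gene Kdm6a had a log2 fold change of 0.44 (adjusted p = 0.00163 in edgeR). Of 16 DNA methylation genes, 3 were higher, 1 lower and 12 not called. Tet2, an oxidase of methylated cytosine, rose by 0.51 on the log2 scale (SE 0.08, adjusted p = 0.000673 in edgeR). Dnmt3b, a methyltransferase gene, had 0.70 (adjusted p = 0.0475 in edgeR) and lost its call without any 1 library other than Scramble replicate 1 (adjusted p up to 0.159). In the list of histone H3K9 silencing genes, 3 of 21 were higher, 4 lower and 14 not called, and the demethylase gene Kdm4a had 0.28 (adjusted p = 0.00422 in edgeR).

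Germline genes stayed low. Of 26 germline genes, 25 were under 1 CPM in every library, 10 had 0 counts throughout, and the 2 that could be tested were not called by edgeR. Among 21 tested genes of stratified epithelium, 6 were called higher, 4 lower and 11 not called, where 11.8% of all tested genes were higher and 12.5% lower. Krt17, a stress keratin gene with 0 counts in every Scramble library, measured 1.89, 1.17 and 1.17 CPM in JagKO2, JagKO3 and JagKO4, under the JAG2KO limit of the rule. The 4 lower genes were Klf4, Itga6, Itgb4 and Jup, with log2 fold changes of -0.83, -0.32, -0.68 and -0.62. The squamous master regulator Trp63 had 18, 0 and 5 counts in JagKO2, JagKO3 and JagKO4 and 1, 6 and 0 counts in Scramble replicates 1, 2 and 3. Skin keratinocyte markers summed to 28.5, 13.6 and 13.6 CPM in JagKO2, JagKO3 and JagKO4 and to 4.76 to 5.35 CPM in Scramble. That list holds Krt5 and Krt14, which met the CPM limits and were left out of the set by name, and these 2 are its only called genes. Without them it summed to 12.3, 7.15 and 5.83 CPM in JagKO2, JagKO3 and JagKO4, against 4.85, 4.55 and 4.82 CPM in Scramble replicates 1, 2 and 3, and 0 of its 5 tested genes were called by edgeR.

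Of 13 tested Notch target genes, 4 were called higher, 1 lower and 8 not called, against 11.8% higher and 12.5% lower of all tested genes, and the median over the list was 0.25 (log2). Those higher were Notch3, whose values are given above, Dll4, Hey1 and Hes1. Hey1, a repressor gene switched on by Notch, averaged 0.662 ± 0.196 CPM in JAG2KO and 0.0887 ± 0.0647 CPM in Scramble (SD, n = 3 each; log2 fold change 2.38, SE 0.68, adjusted p = 0.00871 in edgeR). Hes1, a repressor gene of the same family, averaged 16.7 ± 3.29 CPM in JAG2KO and 10.8 ± 1.96 CPM in Scramble (log2 fold change 0.63, adjusted p = 0.0154 in edgeR), and lost its call without JagKO4 or without Scramble replicate 2 (adjusted p up to 0.0796). The Notch ligand gene Dll4, itself a target, averaged 2.77 ± 0.755 CPM in JAG2KO and 0.919 ± 0.28 CPM in Scramble (log2 fold change 1.53, SE 0.33, adjusted p = 0.00462 in edgeR), while Efnb2 fell by 0.37 on the log2 scale (adjusted p = 0.00637 in edgeR). Part of the endothelial and mural cell genes given above moved with Notch3, Dll4 and Hey1, which vessel cells also express, and the part of such cells in these levels was not tested.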

How the data were processed

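PolyA RNA of 6 libraries was counted per gene, and the authors deposited raw whole-number counts in 1 table. Per the submitters' processing notes, the tools were STAR 2.7.7a and HTSeq 0.11.2. Settings, genome build, annotation and strandedness: not given in the sources used here. Scramble columns match the sample titles. JAG2KO columns are numbered 2 to 4 and the titles 1 to 3, so they were used without replicate numbers. Of 55334 gene IDs, 55154 matched a symbol. Coordinates, exon lengths (union of exons) and exon overlaps are from GENCODE M21 (GRCm38), and upstream sequences from RefSeq (GRCm38.p6).

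CPM uses library totals. Groups were compared over all genes in R 4.3.3 with edgeR 4.0.16: filterByExpr (minimum count 10, minimum total 15), TMM factors, the quasi-likelihood test (4 residual degrees of freedom) and p-values adjusted by Benjamini-Hochberg, with calls under 0.05. Log2 fold changes use a prior count of 2; standard errors come from the unshrunken coefficient and its F statistic. The procedure was tested on simulated data. Alternatives were RLE factors, library totals, other filters, DESeq2 1.42.0, other windows, other limits and each library left out.

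The switched-on genes and all gene lists were chosen with earlier results of these data known; the smooth muscle and astrocyte lists and the nearest-gene count were added after the data were seen. For a symbol with several IDs the one with most counts was used. Values per library are given for the 15 members with the highest JAG2KO CPM and for the 10 with the highest ratio or spread. Of neighbours, families and lists, up to 3 called genes each way with the smallest p were named, beside genes singled out after their values were seen (Rftn2, Sgsm3, Pou2f1, Dmrt2, Rhobtb1, Arid5b, Hes1, Mcam, Abcc9, Kcnj8, Trp63).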

Additional observations from a re-analysis of the deposited data

How the results depend on the processing

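No paired analysis was possible because the JAG2KO columns carry numbers that do not match the labels' replicate numbers, so the planned replicate block was not run. With TMM-scaled or RLE-scaled library sizes the rule gave the same 21 genes. With limits of under 0.5 CPM in Scramble and at least 4 CPM in JAG2KO it gave 2, with a limit of 2 CPM for both groups 89, and with group means in place of single libraries 57; the cause lies in the limits themselves. Leaving out 1 library gave 21 to 29 genes. The 21 were always among them, which is fixed in advance, since dropping a library only loosens the rule. Neighbour genes called higher numbered 8 within 100 kb and 47 within 1000 kb, and those called lower 7 and 42, as the windows hold 48 and 349 tested genes. Leaving out 1 library gave 19 to 33 higher and 9 to 19 lower neighbours within 500 kb, and 7 to 13 higher among the nearest genes; fewer samples enter these fits. The log2 fold changes of the members ran from 1.59 to 8.31 over 189 alternative values, with 0 reversed; that of Tmem26 was 7.10, and 8.31 with a prior count of 0.5. With 3 libraries a group, levels under 0.081 CPM rest on 3 counts or fewer.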
